A study of Mus musculus with 24 samples.

Results

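Layers of the cerebral cortex are built from projection neurons whose identity is set by a small group of transcription factors, and 9 of these genes were followed here: Cux1, Cux2, Rorb, Fezf2, Bcl11b, Tbr1, Tle4, Foxp2 and Sox5. They were taken by gene symbol from the 48709 genes of the count table, by a rule that uses no measured value, though earlier results of these data were known when the set was chosen. Each was counted in all 12 cortex libraries and entered the test, as 9 of 20857 genes.

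The cortex came from neonatal C57BL/6J mice labelled 3 to 5 days old. Their dams inhaled nano-sized particulate matter (nPM, collected from ambient air near a freeway) or filtered air (control). Sessions of 5 h were held on 3 days of each week, from gestational day 2 until birth. The dose of 300 is given in mg/m3 in the sample labels and in μg per cubic metre in the methods, and the methods name the substrain C57BL/6NJ and an age of 5 days. Each exposure group held 6 pups, 3 females and 3 males. By the methods, the 3 pups of a sex in a group came from different litters. The labels do not tie pups to litters, so whether a female and a male shared a litter is not known. The same study sequenced 12 libraries of whole blood. The control libraries are called V10, V12 and V19 (females) and V14, V16 and V24 (males), and the nPM libraries V9, V11 and V20 (females) and V13, V15 and V23 (males).

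The genes lie apart in the genome (mm10). Cux1 (chromosome 5, 136248135 to 136567490) and Cux2 (chromosome 5, 121856366 to 122050102) share a chromosome, as do Rorb (19, 18930605 to 19111196) and Tle4 (19, 14448072 to 14598051), and Foxp2 (6, 14901349 to 15441977) and Sox5 (6, 143828425 to 144781977). Fezf2 is on chromosome 14 (12341892 to 12345865), Bcl11b on chromosome 12 (107910403 to 108003602) and Tbr1 on chromosome 2 (61802930 to 61814114). All 9 are protein-coding.

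Early-born neurons fill the deep layers and later-born neurons the upper ones. Cux1 and Cux2, homeodomain factors, mark upper-layer neurons that project within the cortex, and Rorb, an orphan nuclear receptor, marks layer 4, where thalamic input arrives. Fezf2, a zinc finger factor, specifies subcerebral neurons of layer 5 and acts upstream of Bcl11b (also called Ctip2), which is needed for corticospinal axons and is also a defining gene of striatal projection neurons. Tbr1, a T-box factor, specifies corticothalamic neurons of layer 6 and restrains Fezf2 there. Tle4, a Groucho-type corepressor, and Foxp2, a forkhead factor, are made in layer 6 neurons, Foxp2 also in the striatum, and Sox5 controls the timing at which deep-layer neurons take on their identities.

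The promoters of Fezf2 and Bcl11b are shown because these 2 genes of one pathway varied in opposite directions between the libraries. The RefSeq windows (GRCm38.p6, the mm10 build) run from 250 bases before to 50 bases after a transcript start, 5′ to 3′ on the minus strand, and capitals mark CG dinucleotides. The Fezf2 window is chr14:12345816-12346115 and that of Bcl11b is chr12:108003365-108003664.
Fezf2: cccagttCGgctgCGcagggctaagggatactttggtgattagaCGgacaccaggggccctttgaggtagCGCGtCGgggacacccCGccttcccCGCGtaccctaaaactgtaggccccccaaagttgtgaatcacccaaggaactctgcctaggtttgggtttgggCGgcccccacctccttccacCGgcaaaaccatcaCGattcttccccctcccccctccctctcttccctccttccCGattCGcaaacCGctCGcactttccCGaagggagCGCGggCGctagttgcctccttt
Bcl11b: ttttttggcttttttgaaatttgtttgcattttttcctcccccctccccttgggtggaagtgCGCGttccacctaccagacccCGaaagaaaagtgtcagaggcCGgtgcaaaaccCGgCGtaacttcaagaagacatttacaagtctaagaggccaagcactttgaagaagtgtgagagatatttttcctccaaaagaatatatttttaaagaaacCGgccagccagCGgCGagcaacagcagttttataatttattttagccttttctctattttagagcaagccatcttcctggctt
The Fezf2 window held 20 CG sites and was 61.3% G and C, and the Bcl11b window held 9 CG sites and was 43.0% G and C, against a median of 7 CG sites over all 32851 promoter windows. On either strand, TATAAA was matched once in the Bcl11b window and not in that of Fezf2, and 13.6% of all windows held it. Windows were found for 8 of the 9 genes. No measurement of promoter activity bears on them here.

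Per length of gene, the 9 factors were expressed at moderate levels in neonatal cortex, and Tle4 stood above the others. Tle4 had a mean level of 20.1 ± 1.37 RPKM (counts scaled by gene length and library size; SD over 12 libraries), and its lowest library, at 17.8 RPKM, was above the highest library of every other factor. Fezf2 followed at 12.2 ± 0.909 RPKM and Bcl11b at 12.1 ± 1.46 RPKM. These neighbours did not differ beyond their spread, since the level of Fezf2 was the higher in 5 of 12 libraries. Cux2 was at 9.83 ± 1.04 RPKM, Rorb at 8.44 ± 1.04 RPKM and Tbr1 at 8.30 ± 0.708 RPKM, with overlapping ranges, and Rorb was above Tbr1 in 7 of 12 libraries. Cux1 was at 6.60 ± 0.278 RPKM, below Tbr1 within all 12 libraries. Sox5 was at 5.96 ± 0.574 RPKM, and Foxp2, the lowest, at 2.39 ± 0.416 RPKM, with a range of 1.72 to 3.21 that did not reach the lowest Sox5 library at 4.98 RPKM. The lengths behind these levels count every annotated exon of a gene, and the long genes Cux1 (20024 bases) and Foxp2 (16346 bases) rank higher in CPM (counts scaled by library size alone), Cux1 first at 132.1 CPM. A list of general neuron markers, Tbr1 among them and only some particular to excitatory neurons, summed to 3219 to 3592 CPM per cortex library.

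The question put to the 9 genes was whether prenatal nPM exposure changed their level in the cortex. None passed the study's cutoff of an unadjusted p of 0.005, which 0.614% of all tested genes passed, nor an adjusted p of 0.05 (0.0144% of genes). At an unadjusted p of 0.05, Fezf2 and Sox5 were called, both lower after nPM, 2 of 9 genes against a background of 5.67% of all genes (2.94% lower and 2.73% higher). The 9 adjusted p-values from edgeR's quasi-likelihood test, fitted on all genes with sex and RNA integrity as covariates, were 0.844 or higher. The log2 fold changes of nPM against control ran from -0.16 to 0.11, with a median of -0.08 beside -0.00 for all tested genes, and 7 of the 9 were negative. For 0 of the 9 did the 6 nPM libraries lie apart from the 6 control libraries, and 0.197% of all genes were apart in this way. With 1 library left out, further genes came under an unadjusted p of 0.05, namely Bcl11b (0.16) and Foxp2 (0.21) without V10 and Rorb (-0.17) without V24. All values that follow are CPM scaled by TMM factors, unless another scale is named.

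**Figure D1:**
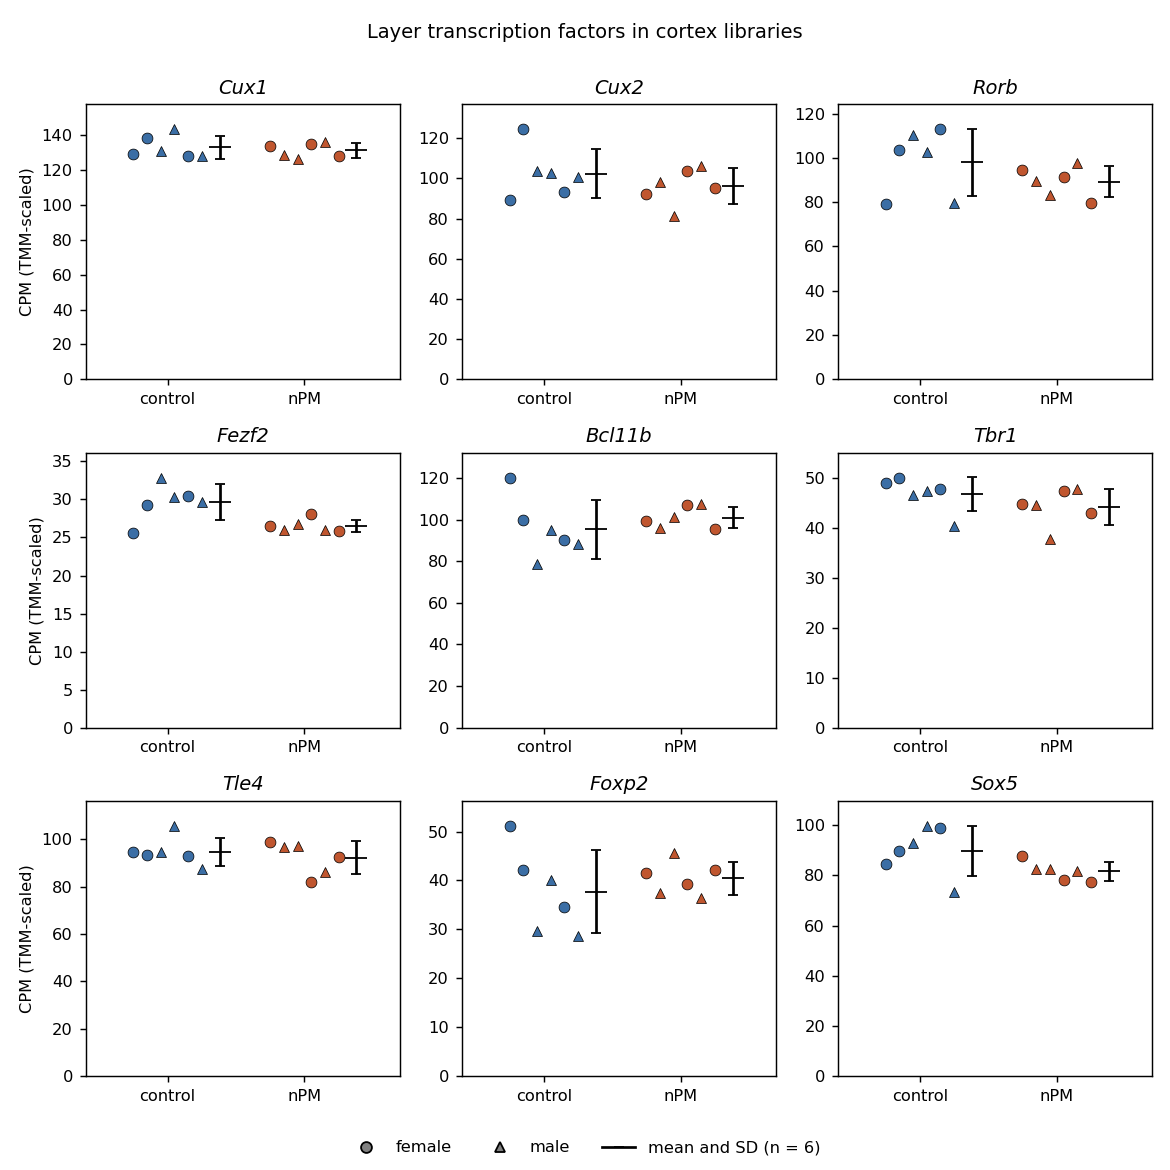
Level of each of the 9 factors in every cortex library (CPM, TMM-scaled, linear axis from 0), control in blue and nPM in orange, circles for females and triangles for males, with the mean and SD of 6 libraries beside each group. The groups overlap for every gene, and for Fezf2 the 6 nPM libraries lie between 25.8 and 28.0 CPM, below 5 of the 6 controls.

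Among the upper-layer factors, Cux1 was the steadiest of the 9 over all 12 libraries. Cux1 ran from 127.8 through a median of 130.1 to 143.2 CPM in controls and from 126.3 through 131.1 to 136.1 CPM after nPM. For Cux1 the log2 fold change was -0.02 (SE 0.04, edgeR adjusted p = 0.965), and the groups lay on top of each other. Cux2 ran from 89.3 through 101.7 to 124.3 CPM in controls, with V12 highest, and from 81.2 through 96.8 to 106.0 CPM after nPM, with V15 lowest. Its log2 fold change was -0.09 (SE 0.08, edgeR adjusted p = 0.899). The plain difference of mean log2 CPM, without covariates, was -0.19 among the libraries of sequencing lane 2 and 0.11 among those of lane 3. Lane 3 held only the controls V19 and V24 and the nPM libraries V20 and V23. Lane values given below are plain differences of this kind. Rorb, of layer 4, ran from 79.0 through 102.9 to 112.8 CPM in controls and from 79.5 through 90.4 to 97.6 CPM after nPM. Both the lowest and the highest Rorb library were controls, V10 and V19, and the log2 fold change was -0.12 (SE 0.08, edgeR adjusted p = 0.884).

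Fezf2 carried the lowest p of the 9. In controls Fezf2 was at 25.6 CPM in V10, 29.2 in V12, 29.6 in V24, 30.3 in V16, 30.5 in V19 and 32.8 in V14. After nPM it was at 25.8 CPM in V9, 26.0 in V13, 26.0 in V23, 26.6 in V11, 26.8 in V15 and 28.0 in V20. Control V10 was the lowest of all 12 libraries and the other 5 controls were above every nPM library, so that the nPM library was the lower in 30 of the 36 pairs of an nPM and a control library. The means were 29.7 ± 2.37 CPM in controls and 26.5 ± 0.824 CPM after nPM (SD, n = 6 each, exact two-sided permutation test, p = 0.0173, where the smallest p that 6 against 6 allow is 0.00216). The log2 fold change of Fezf2 was -0.16 (SE 0.06; edgeR p 0.0122 before and 0.844 after adjustment). The plain difference was -0.16 within lane 2 and -0.16 within lane 3. Left out in turn, each of the 12 libraries kept the unadjusted p under 0.05, and without V10 the log2 fold change was -0.21, at an unadjusted p of 0.00166, and without V20 it was -0.18, at 0.00442, both past the study's cutoff.

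Bcl11b, which acts downstream of Fezf2, did not follow it. Bcl11b was at 78.5 CPM in V14, 88.5 in V24, 90.1 in V19, 95.0 in V16, 99.99 in V12 and 120.1 in V10 among controls, and at 95.3 CPM in V9, 95.9 in V13, 99.1 in V11, 101.5 in V15, 106.8 in V20 and 107.3 in V23 after nPM. The 2 controls at the ends, V14 and V10, enclosed every nPM library. For Bcl11b the log2 fold change was 0.08 (SE 0.07, edgeR adjusted p = 0.886). The plain difference was 0.01 within lane 2 and 0.26 within lane 3.

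In layer 6, Tbr1 ran from 40.3 through 47.6 to 50.1 CPM in controls and from 37.7 through 44.7 to 47.8 CPM after nPM. For Tbr1 the log2 fold change was -0.08 (SE 0.06, edgeR adjusted p = 0.886), and the plain difference was -0.19 in lane 2 and 0.12 in lane 3. Tle4 ran from 87.4 through 94.1 to 105.5 CPM in controls and from 81.9 through 94.5 to 99.0 CPM after nPM, giving a log2 fold change of -0.04 (SE 0.05, edgeR adjusted p = 0.937). Foxp2 had the widest spread of the 9 over all 12 libraries, at a coefficient of variation of 16.2%. Foxp2 ran from 28.7 CPM in V24 through a median of 37.3 to 51.1 CPM in V10 among controls and from 36.3 through 40.5 to 45.7 CPM after nPM. Its log2 fold change was 0.11 (SE 0.10, edgeR adjusted p = 0.903), and every nPM library lay inside the control range.

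Sox5 was the other factor with an unadjusted p under 0.05. Sox5 was at 73.2 CPM in V24, 84.4 in V10, 89.9 in V12, 92.8 in V14, 98.7 in V19 and 99.6 in V16 among controls, and at 77.2 CPM in V9, 78.2 in V20, 81.6 in V23, 82.3 in V15, 82.6 in V13 and 87.7 in V11 after nPM. Control V24 was the lowest of all 12, and the other 5 controls were above 5 of the 6 nPM libraries, all but V11. The log2 fold change of Sox5 was -0.13 (SE 0.06, edgeR p 0.0451 before and 0.862 after adjustment). The plain difference was -0.15 in lane 2 and -0.09 in lane 3. The exact two-sided permutation test gave p = 0.0931 for Sox5. Leaving out 1 library kept the unadjusted p under 0.05 in 3 of 12 cases, and without V24 the log2 fold change was -0.18, at an unadjusted p of 0.000212. Overlapping antisense and sense-intronic genes at Sox5 had at most 26 counts in a cortex library, against at least 1755 for Sox5 itself, and whether counting used strand is not given in the sources used here. In bulk tissue, fewer cells of a layer and less RNA per cell cannot be told apart for any of these genes.

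The striatum lies under the cortex, and a list of 18 striatal genes, none of them among the 9, varied between the cortex libraries. Cortical neurons also make some of these genes, and Ppp1r1b and Foxp1 stand on the layer 6 and partner lists as well. In controls the list summed to between 441.1 CPM in V14 and 1017 CPM in V10, and in the nPM libraries to between 712.5 and 840.5 CPM. Of its 18 genes, 16 had a positive log2 fold change after nPM, with a median of 0.23 (0.07 in females and 0.61 in males). At an unadjusted p of 0.05, 4 of 18 passed, all higher, where 2.73% of all genes passed in that direction. Positive values also prevailed in the lists of interneurons and subpallium (14 of 16 tested genes) and of cortical progenitors (10 of 11). They did so too in those of thalamus and hypothalamus (9 of 11) and of astrocytes (6 of 8, with a median of 0.01). They did not in those of microglia (2 of 8), the oligodendrocyte lineage (3 of 8), hippocampus (4 of 9) and red cells (1 of 5). Of all 20857 tested genes, 10196 had a positive value. Drd1, the dopamine receptor of the direct striatal pathway, had 733 to 1553 counts in every cortex library. The choroid plexus list also varied, from 32.6 CPM in V14 to 401.7 CPM in V19 among controls and from 239.8 to 519.2 CPM after nPM, and 8 of its 8 genes had a positive log2 fold change.

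With both exposures pooled, Bcl11b and Foxp2, the members that are also striatal genes, were higher in libraries with a higher level of the striatum list. Fezf2 was lower in such libraries. Over 12 libraries, log2 CPM of Bcl11b had a Pearson r of 0.87 with the mean log2 CPM of the striatum list (permutation test, adjusted p = 0.000495 over the 9 genes, Spearman rho 0.87 with adjusted p = 0.00459). Leaving out V14 and V19, the libraries farthest from the median of the list, left r at 0.83. Foxp2 had r = 0.74 (permutation, adjusted p = 0.0120, rho 0.74 with adjusted p = 0.0232), and 0.72 without those 2 libraries. Fezf2 had r = -0.83 (permutation, adjusted p = 0.000495, rho -0.77 with adjusted p = 0.0231), and -0.66 without them. Rorb had r = -0.67 (permutation, adjusted p = 0.0120), its rho of -0.63 had an adjusted p of 0.0722, and r was -0.43 without the 2 libraries. The other 5 factors had adjusted p-values of 0.237 or higher for r. Among the 8 libraries of lane 2, r was 0.92 for Bcl11b, 0.95 for Foxp2, -0.85 for Fezf2 and -0.73 for Rorb, and lane 3 held too few libraries for a value. The relation was not tested within an exposure group. Among controls, Fezf2 was at 32.8 CPM in V14, lowest by the list mean, and 25.6 in V10, the highest. Among nPM libraries, Fezf2 was at 26.0 CPM in V13, lowest by that mean, and 26.8 in V15, the highest. From V13 to V15, Bcl11b went from 95.9 to 101.5 CPM, Foxp2 from 37.4 to 45.7 and Rorb from 89.5 to 83.3.

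**Figure D2:**
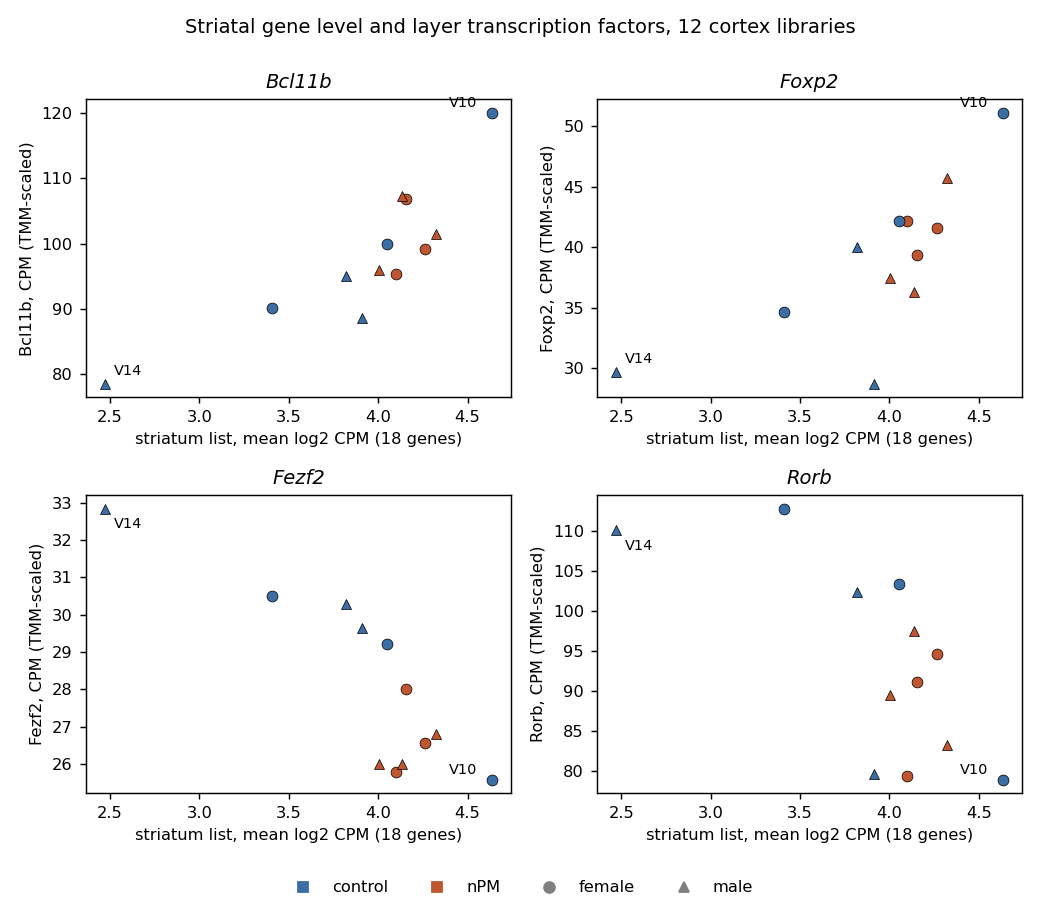
Level of Bcl11b, Foxp2, Fezf2 and Rorb (CPM, TMM-scaled, axes not from 0) against the mean log2 CPM of 18 striatal genes in each of 12 cortex libraries, control in blue and nPM in orange, circles for females and triangles for males. V14 and V10, both controls, are the ends of the striatal axis and also of the Bcl11b and Fezf2 axes, and the nPM libraries lie close together, the highest at 4.32.

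The nPM term of these genes was also fitted with the mean of the striatum list as a covariate. The log2 fold change of Bcl11b was then -0.01 (SE 0.05) and that of Foxp2 -0.01 (SE 0.09), where both had been positive, and that of Rorb was -0.03 (SE 0.07), where it had been -0.12. Fezf2 was at -0.10 (SE 0.05, unadjusted edgeR p of 0.0928) and Sox5 at -0.10 (SE 0.07, unadjusted edgeR p of 0.143), so that 0 of the 9 genes had an unadjusted p under 0.05 in that fit. With V10 and V14 both left out, a choice made after seeing the values, Fezf2 was at -0.18 (SE 0.06, unadjusted edgeR p of 0.00664) and Sox5 at -0.09 (SE 0.07, unadjusted p of 0.237). The part of the amount of striatal RNA in the nPM values was not tested beyond these fits.

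The spread between controls was larger than that between nPM libraries for 7 of the 9 factors. Foxp2 had a coefficient of variation of 22.4% in controls and 8.50% after nPM, Bcl11b 14.8% and 5.16%, Rorb 15.3% and 7.65%, and Fezf2 7.97% and 3.11%. The controls were also the more variable for 75.5% of the 7966 tested genes at 20 CPM or more, so the 9 genes stood near the background in this. Without V10 and V14 the control value was 1.97% for Fezf2, 5.57% for Bcl11b and 16.5% for Foxp2, while that of Cux1, Cux2, Tbr1, Tle4 and Sox5 was larger than with them. The remaining 4 controls were then the more variable for 8 of the 9 factors and for 71.8% of the same genes.

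Ratios of 2 factors within a library do not depend on library size, and they were used to compare upper with deep layers. The log2 ratio of the mean of Cux1 and Cux2 to the mean of the deep-layer factors was 0.99 ± 0.14 in controls and 0.97 ± 0.10 after nPM (SD, n = 6 each). The log2 ratio of Cux1 to Cux2 was 0.38 ± 0.14 in controls and 0.45 ± 0.11 after nPM, and that of Fezf2 to Tbr1, which oppose each other between layers 5 and 6, was -0.66 ± 0.18 and -0.73 ± 0.13. All 3 differences were smaller than the SD of either group. The log2 ratio of Bcl11b to Tle4 was -0.00 ± 0.21 in controls and 0.13 ± 0.17 after nPM. The log2 ratio of Bcl11b to Fezf2, added after seeing the values, was 1.68 ± 0.32 in controls, from 1.26 in V14 to 2.23 in V10, and 1.93 ± 0.06 after nPM, from 1.88 to 2.04.

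Between individual pups, some of the 9 factors varied together. Of the 36 pairs, 3 passed an adjusted permutation p of 0.05 for Pearson r of log2 CPM over 12 libraries, each at an adjusted p of 0.0419. Rorb and Sox5 were positively related (r = 0.81, rho 0.72), as were Bcl11b and Foxp2 (r = 0.79, rho 0.62), and Fezf2 and Bcl11b were inversely related (r = -0.75, rho -0.71). Without the 2 libraries farthest from the median of the first gene, r was 0.71, 0.54 and -0.51 in the same order, and within lane 2 it was 0.83, 0.96 and -0.73. By Spearman's rho, no pair passed (adjusted permutation p of 0.112 or higher). After removing exposure, sex and RNA integrity, r was 0.70, 0.69 and -0.71, and no pair passed (lowest adjusted permutation p of 0.107). Cux1 and Cux2, close relatives in sequence and layer, had r = 0.66 at an adjusted permutation p of 0.126.

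**Figure D3:**
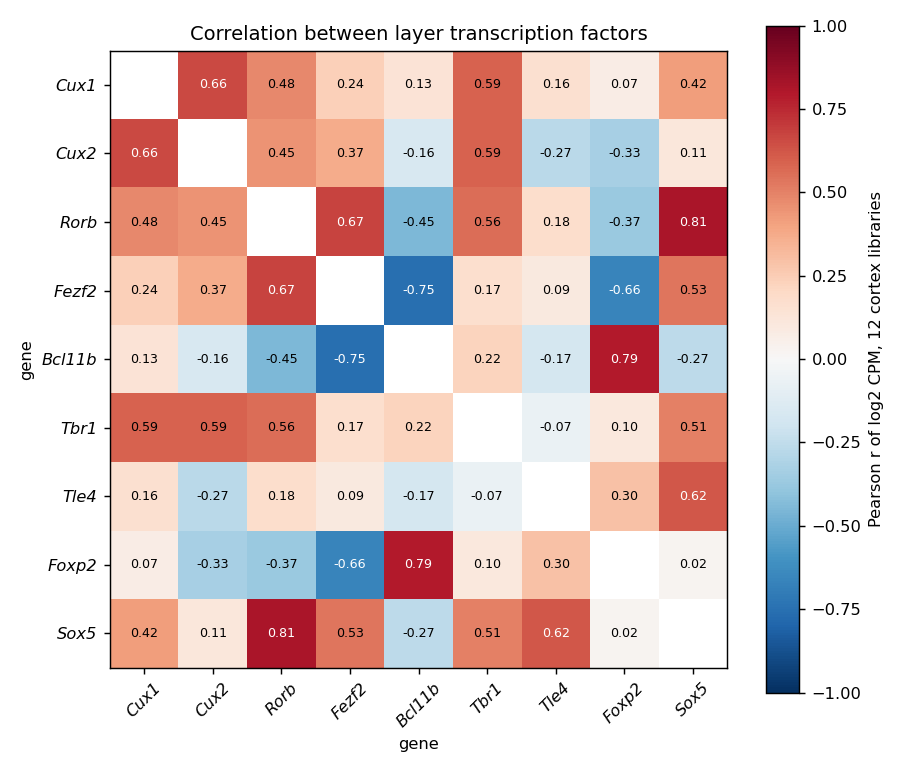
Pearson r of log2 CPM for each of the 36 pairs of the 9 factors over 12 cortex libraries, red for positive and blue for negative on a scale from -1 to 1. Rorb with Sox5 (0.81), Bcl11b with Foxp2 (0.79) and Fezf2 with Bcl11b (-0.75) are the pairs with an adjusted permutation p under 0.05.

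Genes with the most similar profile were sought for each factor among 13633 protein-coding genes at a mean of 1 CPM or more, by Pearson r of log2 CPM over the same 12 libraries. With so many genes searched, these r values are high by selection and are given as a description. Sox5 was followed most closely of all, by Zeb2 (r = 0.99), a zinc finger repressor made in young cortical neurons, and by Syt14 (0.91). Bcl11b was nearest to Dlx6 (0.94), a homeobox gene of the ganglionic eminences, and Crabp1 (0.92), and Foxp2 to Kctd8 (0.94). Fezf2 was nearest to 9130023H24Rik (0.88) and Eya4 (0.87), Rorb to Nwd2 (0.92) and Pcdha9 (0.91), and Tbr1 to Bcl9 (0.93) and Slf2 (0.93). Cux1 was nearest to Psd2 (0.93) and Dynlt1b (0.92), Cux2 to Edc4 (0.91) and to Rbfox3 (0.88), the gene of the neuronal antigen NeuN, and Tle4 to Zfp638 (0.87) and Ptk2 (0.87).

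The study also compared the sexes. In the fit of both exposures together, Foxp2 and Bcl11b were lower in males. Their log2 differences of male against female were -0.27 (SE 0.11, unadjusted edgeR p of 0.0279) and -0.17 (SE 0.07, unadjusted p of 0.0369). The 2 of 9 genes at an unadjusted p of 0.05 stand beside 6.09% of all genes (3.2% lower in males). The adjusted p was 0.797 for both. Foxp2 ran from 34.7 through 41.9 to 51.1 CPM in females and from 28.7 through 36.9 to 45.7 CPM in males, and Bcl11b from 90.1 through 99.6 to 120.1 CPM in females and from 78.5 through 95.5 to 107.3 CPM in males. The sexes overlapped for both genes, and the exact permutation tests gave p = 0.141 for Foxp2 and p = 0.258 for Bcl11b. Mean Foxp2 was 42.6 CPM in females and 32.8 in males among controls, and 41.0 and 39.8 after nPM. Mean Bcl11b was 103.4 CPM in females and 87.3 in males among controls, and 100.4 and 101.5 after nPM. The striatum list had a median log2 difference of -0.30 between the sexes, and its highest library, V10, was a female and its lowest, V14, a male. Without V10 the differences were -0.08 for Foxp2 and -0.03 for Bcl11b, without V14 they were -0.23 and -0.13, and neither gene had an unadjusted p under 0.05 in either fit. Without V16, Foxp2 was at -0.41 (unadjusted edgeR p of 0.00239). With the striatum list as a covariate, Foxp2 was at -0.14 (unadjusted edgeR p of 0.203) and Bcl11b at -0.07 (unadjusted p of 0.281). Neither gene had an unadjusted p under 0.05 without V24, nor did Bcl11b without V12 or V13. The other 7 factors had log2 differences from -0.08 to 0.11, with unadjusted edgeR p-values of 0.234 or higher.

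The sexes were also taken apart, with 3 pups per group, as the study did for exploration. In females, Sox5 and Rorb had an unadjusted p under 0.05, both lower after nPM, 2 of 9 genes against 15.4% of the 21731 genes tested in females (9% lower). Sox5 was at 84.4 CPM in V10, 89.9 in V12 and 98.7 in V19 among control females and at 77.2 in V9, 78.2 in V20 and 87.7 in V11 after nPM. The groups overlapped by V11 and V10, and the log2 fold change with RNA integrity in the model was -0.20 (SE 0.05; edgeR p 0.0018 before and 0.0820 after adjustment). Sox5 was then past the study's cutoff of 0.005, as were 4.02% of genes, and it was not past it without RNA integrity in the model or without V9, V10, V11 or V19. Rorb was at 79.0 CPM in V10, 103.4 in V12 and 112.8 in V19, and at 79.5 in V9, 91.2 in V20 and 94.6 in V11, giving a log2 fold change of -0.19 (SE 0.08; edgeR p 0.0374 before and 0.290 after adjustment). Control V10 was below all 3 nPM females for Rorb. The Rorb value was -0.12 to -0.17 without V9, V11, V12 or V19, with an unadjusted p then above 0.05, and it was -0.28 without V10 and -0.38 without V20. In females only Tbr1 of the 9 had groups that did not overlap, against 21.6% of all genes.

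In males, Bcl11b, Fezf2 and Foxp2 had an unadjusted p under 0.05, 3 of 9 genes against 4.51% of the 21670 genes tested in males (2.49% higher and 2.03% lower). Bcl11b was at 78.5 CPM in V14, 88.5 in V24 and 95.0 in V16 among control males and at 95.9 in V13, 101.5 in V15 and 107.3 in V23 after nPM, giving a log2 fold change of 0.30 (SE 0.07; edgeR p 0.0029 before and 0.962 after adjustment). Its groups were apart by less than 1 CPM. As a contrast of the fit of both sexes, male Bcl11b was at 0.19 (unadjusted edgeR p of 0.0649) and male Foxp2 at 0.25 (unadjusted p of 0.112). Fezf2 was at 29.6 CPM in V24, 30.3 in V16 and 32.8 in V14, and at 26.0 in V13, 26.0 in V23 and 26.8 in V15, giving a log2 fold change of -0.25 (SE 0.08; edgeR p 0.0168 before and 0.962 after adjustment). These were the 2 of 9 genes whose male groups did not overlap, against 9.17% of all genes. Foxp2 was at 28.7 CPM in V24, 29.7 in V14 and 40.0 in V16, and at 36.3 in V23, 37.4 in V13 and 45.7 in V15, giving a log2 fold change of 0.37 (SE 0.16; edgeR p 0.0433 before and 0.962 after adjustment). V16 lay among the nPM males for Foxp2, whose log2 fold change was 0.74 without V23. Bcl11b was past the cutoff of 0.005 with 0.318% of genes, and it was not past it without V13, V14, V15 or V23, at log2 fold changes of 0.22 to 0.34. The unadjusted p was no longer under 0.05 for Fezf2 without V14 (-0.19) or V23 (-0.26), and for Foxp2 without V13, V14, V15 or V24 (0.25 to 0.38). The striatum list was at its lowest in the control male V14, and its median log2 fold change in males was 0.61.

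**Figure D4:**
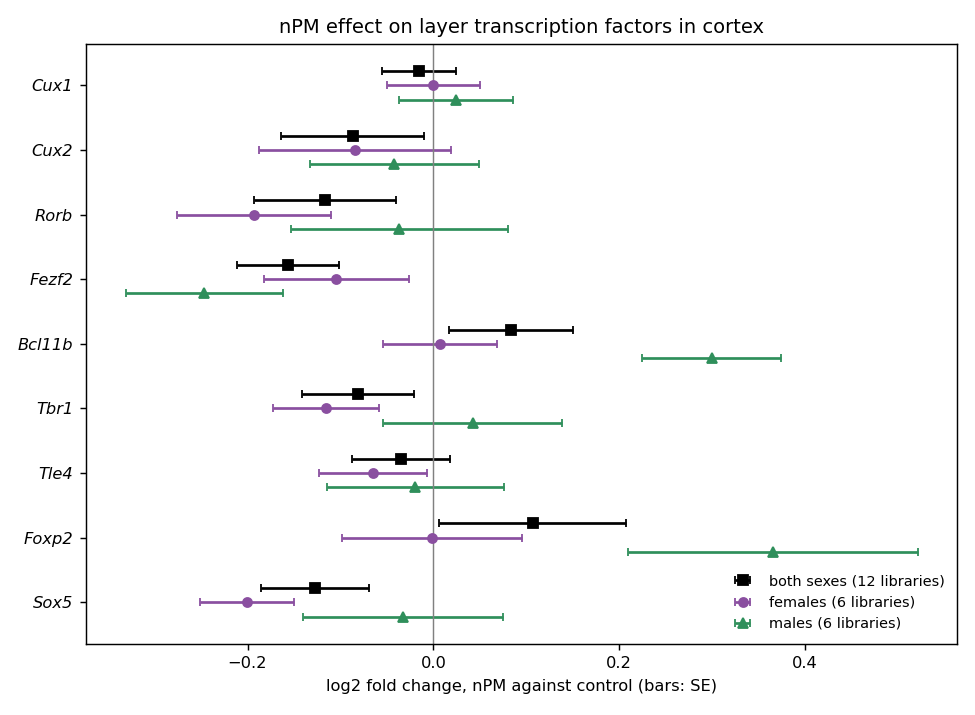
Log2 fold change of nPM against control for each factor, with its SE, in the fit of all 12 cortex libraries (black squares) and in the fits of 6 females (purple circles) and 6 males (green triangles). Bcl11b (0.30) and Foxp2 (0.37) in males lie to the right of 0 and near 0 in females, and Sox5 (-0.20) and Rorb (-0.19) in females lie to the left.

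Whether the nPM response differed between the sexes was tested as an interaction term. For 0 of the 9 factors was its unadjusted edgeR p under 0.05, where 9.68% of all genes were, and the adjusted p-values were 0.655 or higher. The interaction, male minus female in log2 fold change, was 0.20 (SE 0.13) for Bcl11b, 0.27 (SE 0.21) for Foxp2, -0.13 (SE 0.11) for Fezf2, 0.15 (SE 0.12) for Sox5 and 0.15 (SE 0.16) for Rorb. In the other sex, the log2 fold changes were 0.01 for Bcl11b, -0.00 for Foxp2 and -0.10 for Fezf2 in females, and -0.03 for Sox5 and -0.04 for Rorb in males. With 1 library left out, the interaction of Bcl11b and Foxp2 came under an unadjusted p of 0.05 without V16 (0.27 and 0.41) and without V19 (0.32 and 0.48), and that of Rorb without V20 (0.34).

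Other genes of the same layers were taken from lists in which the 9 were left out. At an unadjusted p of 0.05, 2.73% of all tested genes were higher and 2.94% lower after nPM. Values were positive for 10196 of all 20857 genes. Of 14 upper-layer genes, 0 were higher and 3 lower after nPM at an unadjusted p of 0.05, with a median log2 fold change of -0.07. Among them, Pou3f1, a POU factor, was at 27.1 ± 1.45 CPM in controls and 23.8 ± 0.822 CPM after nPM, with ranges that did not overlap and a log2 fold change of -0.18 (SE 0.05; edgeR p 0.00222 before and 0.642 after adjustment). Of 13 layer 5 genes, 1 was higher and 0 lower, with a median of -0.01. The one was Crym, a thyroid hormone binding protein, at a log2 fold change of 0.18 (SE 0.07, edgeR adjusted p = 0.844). Of 14 genes of layer 6 and subplate, 1 was higher and 1 lower, with a median of -0.04: Nr4a2, a nuclear receptor of the subplate and claustrum, at 0.30 (SE 0.11), and Zfpm2, a cofactor of corticothalamic neurons, at -0.18 (SE 0.07). Of 8 genes of layer 1 and its Cajal-Retzius cells, 2 were higher and 0 lower, all 8 values were positive and the median was 0.13. Reln, the signal that orders the layers, was at 320.3 ± 29.7 CPM in controls and 348.7 ± 19.9 CPM after nPM (log2 fold change 0.13, SE 0.06, edgeR adjusted p = 0.862), and Lhx1, at 1.14 (SE 0.44), rested on 2 to 15 counts per library.

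Of 27 tested partners and regulators of the 9 factors, 2 were higher and 4 lower at an unadjusted p of 0.05, which 2.73% and 2.94% of all genes passed in these directions. Nr2f2 (COUP-TFII), an orphan receptor of the caudal ganglionic eminence and of ventral and caudal telencephalon, was at 15.7 ± 0.920 CPM in controls and 23.3 ± 3.12 CPM after nPM (SD, n = 6 each). For Nr2f2 the log2 fold change was 0.57 (SE 0.08, edgeR adjusted p = 0.0441), and all 6 nPM libraries, from 19.8 to 27.4 CPM, lay above the highest control at 17.3 CPM. Bhlhe40, a repressor that responds to activity, was at 29.0 ± 1.90 and 24.7 ± 2.27 CPM, giving a log2 fold change of -0.24 (SE 0.06; edgeR p 0.00117 before and 0.569 after adjustment). In 11 lists of neighbouring regions and other cells, 4 of 109 tested genes were past the study's cutoff, against 0.614% of all genes: Gad1, which makes GABA, at a log2 fold change of 0.26 (SE 0.06), Calb2 (calretinin) at 0.49 (SE 0.10), Fibcd1 at 0.33 (SE 0.10) and Trh at -0.33 (SE 0.10). Of 8 general neuron genes, only some of them particular to excitatory neurons and with Tbr1 left out, 7 had a negative log2 fold change. Their median was -0.09, and 0 passed an unadjusted p of 0.05.

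In blood the layer factors were mostly near the limit of counting. Leaving aside V2, the library with by far the most counts of Cux1, Bcl11b, Tle4 and Sox5, Cux1 had 265 to 540 counts per library (13.1 to 26.6 CPM), Bcl11b, a T cell factor, had 11 to 109, and Tle4 had 34 to 98. Sox5 had 0 to 16 counts, Rorb 0 to 15, Cux2 0 to 12, Tbr1 0 to 3, Foxp2 0 to 3 and Fezf2 0 to 2, where 3 counts correspond to 0.137 to 0.221 CPM. In V2, Cux1 had 3322 counts, Bcl11b 811, Tle4 368, Sox5 236 and Foxp2 19. The study excluded a blood sample, which it does not name, because its counts were distributed unlike the others.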

How the data were processed

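Total RNA of neonatal cortex (12 libraries) and blood (12 libraries) was depleted of ribosomal RNA (RiboZero Gold) and sequenced by Illumina short reads. The authors trimmed reads (Trimmomatic) and mapped them with HISAT2 to mm10, and featureCounts 1.5.0-p3 counted overlaps with genes of Gencode M11. The deposited values are raw counts per gene, not normalized. Cortex libraries held 22301409 to 33804371 counts. No 2 cortex libraries agreed within sampling noise.

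Counts were tested, for genes with 1 count or more throughout the libraries compared, with edgeR 4.0.16 (R 4.3.3; TMM, quasi-likelihood F test, Benjamini-Hochberg adjustment over all genes). Covariates were sex and RIN (RNA integrity, 9.4 to 9.9), or RIN alone within a sex. The SE of a log2 fold change is its size divided by the square root of F. Single genes were compared by exact permutation of the exposure labels and correlations by 100000 permutations (SciPy 1.17.1). CPM and RPKM were computed from the counts, the latter with the gene lengths of the deposited gene table. Alternatives were limma 3.58.1 (voom), DESeq2 1.42.0, RLE factors, other filters and covariates, and leaving out each library. The edgeR, voom and DESeq2 steps were tested on simulated data. The study used voom, and edgeR replaced it as the table holds counts.

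The 9 genes and all lists were chosen with earlier results of these data known. Named were the 9 genes, the 2 genes nearest to each by correlation, listed genes past an unadjusted p of 0.005, and the 2 genes of smallest p in each layer list. Some genes that this rule also named are not reported here.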

Additional observations from a re-analysis of the deposited data

Results flagged for a closer look

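In groups of 6 libraries, a library was singled out when its gap to the nearest other library was large for the range of the group (Dixon's criterion). Chance flags about 1 in 20 groups, and 4 of 32 groups were flagged. Tbr1 was at 40.3 CPM in control V24, below the other 5 controls. The log2 ratio of Cux1, Cux2 and Rorb to the deep-layer factors was 0.63 in control V10, the library with the highest sum of striatal genes. The log2 ratio of Fezf2 to Tbr1 was -0.49 in nPM library V15, above the other 5 nPM libraries, and that of Bcl11b to Fezf2 was 2.04 in nPM library V23, also above the others.

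In blood, which no comparison here uses, 2 upper-layer genes were highest of all blood libraries in the nPM library V5, with 12 counts of Cux2 (0.650 CPM) and 15 counts of Rorb (0.813 CPM). The control library V2 was close to it, with 11 counts of Cux2 (0.519 CPM) and 13 counts of Rorb (0.614 CPM).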

How the results depend on the processing

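No paired analysis was possible because the labels give the libraries no shared replicate numbers. The exposure test called 2 of the 9 genes at an unadjusted p of 0.05, and with limma voom, DESeq2, RLE factors, a filter of 10 counts in every library or V10 and V14 left out (the last chosen after seeing the data) the count was 1, Fezf2. With a filter of 1 count in any library it was 3, Rorb (unadjusted p of 0.0323) being added. With the striatum list as a covariate it was 0, and Foxp2 (-0.0105) and Bcl11b (-0.0112) changed sign, as did Tle4 (0.00135) without V10 and V14. The sex test went from 2 genes to 0 without RIN, with the striatum covariate and without V10 and V14, and a filter of 1 count in any library gave 2 genes at a p of 0.005 where there had been 0. The interaction test, at 0, gave 2 genes with that filter, 1 with the striatum covariate and 1 without V10 and V14.

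The counts at a p of 0.05 in females and in males were each 1 when taken as contrasts of the fit of both sexes. At a p of 0.005 those of females and males were each 2 with the filter of 1 count in any library, 0 without RIN and 0 as contrasts. In females, Foxp2 was at 0.00375 with voom, and Bcl11b at -0.0444 without RIN and -0.0173 as a contrast. In place of the 8.41-fold between Tle4 and Foxp2 per length, the highest factor was 4.70-fold above the lowest in CPM. On residuals, 0 pairs of factors were correlated at an adjusted p of 0.05.

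With 1 library left out, the counts at a p of 0.05 ran from 1 to 3 for exposure, 0 to 2 for sex, 0 to 2 for the interaction, 1 to 4 in females, 1 to 4 in males and 1 to 3 in the permutation test. At a p of 0.005 they ran from 0 to 1 for exposure and for sex and from 0 to 2 in females and in males. Log2 fold changes that changed sign ran from -0.0325 to 0.00648 for Cux1, from -0.14 to 0.17 for Foxp2 and -0.0592 to 0.0635 for Bcl11b in females, and from -0.19 to 0.13 for Sox5 and -0.20 to 0.17 for Rorb in males. The difference of Cux1 in the permutation test ran from -2.73 to 0.365 CPM. The cause of these changes was not tested. An adjusted p under 0.05 was met for Foxp2 by sex (0.0302) and for Sox5 (0.0153) and Rorb (0.0182) in females with the filter of 1 count in any library, and for Rorb in females without V20 (0.0139). In the main edgeR fits these adjusted p-values were 0.797 for Foxp2, 0.0820 for Sox5 and 0.290 for Rorb. With that filter the SE went from 0.11 to 0.07 for Foxp2, from 0.08 to 0.06 for Rorb and from 0.050 to 0.057 for Sox5. The share of all genes that passed in these fits is not given here.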
